A study of Mus musculus with 20 samples.

Results

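This account follows 9 genes that cells switch on within minutes to hours of a stimulus: Ier2, Ier3, Ier5, Btg2, Zfp36, Maff, Tiparp, Csrnp1 and Fam46a. The genes were selected on results of these same arrays, with their differences between stimulated and unstimulated neurons already known, so those differences are given below as a description, with no p-value for a gene, and the counts of calls among them are printed beside the background and support nothing. Members were found by gene name among the probes of the array: 12 probes carry the 9 names, of 39429 probes with 30222 different names in all. Ier5, Tiparp and Fam46a have 2 probes each and the other genes 1.

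The samples were dorsal root ganglion (DRG) neurons, the sensory neurons beside the spinal cord, of NIH Swiss mice at embryonic day 13.5, grown in compartmented cultures with 13 µg/ml fluorodeoxyuridine, which kills dividing cells. All cultures, controls included, were held overnight without serum before stimulation, and each condition came from 5 pooled cultures. Stimulated cultures fired for 2 hr or 5 hr in short bursts, 18 action potentials in each minute (18/1), or in long ones of 90 in each 5 minutes (90/5), which give the same mean rate in another pattern. Unstimulated cultures were fitted with electrodes that stayed disconnected. Each of the 5 conditions has 4 samples on 2 arrays scanned in a pair of colours, and both colours of an array hold the same condition. The methods call the samples biological replicas, while neither they nor the labels say how the pooled cultures were divided among the 4, so p-values measure the spread between these samples. In such bulk samples fewer cells of a type and less RNA per cell cannot be told apart.

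Rapid response, or immediate early, genes are transcribed without waiting for new proteins. In neurons, calcium entering during action potentials acts through kinases on factors already bound at such promoters, among them CREB at the cyclic AMP response element (CRE) and serum response factor (SRF) at the CArG box. Many of the transcripts are short-lived, and their products include both transcription factors and proteins that end the response by shortening or destroying mRNA.

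The arrays differ in quality in a way that runs with the conditions. Slide 1 held the unstimulated and 18/1 2 hr samples, slide 2 the 18/1 5 hr and 90/5 2 hr samples, and slide 3 the 90/5 5 hr samples. Slide and condition cannot be told apart except for 18/1 2 hr against unstimulated and for 90/5 2 hr against 18/1 5 hr. The scanner software marked 6 to 36 of 43020 spots as non-uniform on slide 1 and 37 to 85 on slide 3, but 45 to 14642 on slide 2, where the 4 samples of 18/1 5 hr had 5319 to 14642. The log2 differences of 18/1 5 hr from unstimulated had a median of -0.23 over the 10355 genes tested, and of -0.81 when the samples were centred on their medians over all probes only. Of the 9 sensory neuron markers examined, 7 passed the spot filter in all samples. In 18/1 5 hr against unstimulated, 2 of the 7 were above 0, Tubb3 (0.41) and Isl1 (0.79). The median of the 7 was -0.41, against -0.23 for all genes. The software marked 1299 to 2800 spots as saturated in the 18/1 5 hr samples and 0 to 403 in the unstimulated ones. Whether the brightest markers were among these was not examined. The summed signal of the 9 neuronal markers lay between 351188 and 380665 in the unstimulated samples and between 234999 and 338103 in 18/1 5 hr. The summed signal of the 5 fibroblast markers lay between 12900 and 32394 in the unstimulated samples and between 47442 and 60727 in 18/1 5 hr, and the part of these differences in the members' values was not tested. The summed signal of the 4 endothelial markers moved the other way, from 2365 to 3435 in the unstimulated samples to 669 to 952 in 18/1 5 hr, and it was 3772 to 6060 in 90/5 5 hr. Pecam1, the adhesion molecule of these cells, was higher at 5 hr after 90/5 than after 18/1 (log2 1.35, SE 0.29, adjusted p = 0.000831), and the part of this in the members' values was not tested either. The growth protocol in the labels names spinal cord, and not the ganglia, as the source of the cells. Of the 4 spinal cord markers examined, Mnx1 and Olig2 passed the filter in no condition and the other 2 passed in at least 1 condition, and their summed signal was between 411 and 1065 in all samples.

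Sequences upstream of the members' transcript starts were read from RefSeq (GRCm38.p6), the 250 bases before each annotated start. Windows were found for 8 of the 9 genes, 14 windows in all, and Fam46a was matched under its current name, Tent5a. Of these, 2 windows are shown whole and 3 as stretches of 30 bases, because they hold the full CRE, CArG, AP-1 or EGR motifs found near these genes. Each is written 5′ to 3′ on the gene's strand in lower case, with the motif in capitals, and positions count back from the start as negative numbers.

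Btg2, chr1:134079156-134079405, minus strand, with a CRE (TGACGTCA) at -166 to -159: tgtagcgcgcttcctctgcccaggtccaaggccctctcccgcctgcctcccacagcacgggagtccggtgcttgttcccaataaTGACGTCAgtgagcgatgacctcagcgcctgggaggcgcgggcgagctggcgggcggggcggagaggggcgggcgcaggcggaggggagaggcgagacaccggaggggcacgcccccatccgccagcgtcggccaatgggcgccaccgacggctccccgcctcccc
Fam46a, chr9:85327151-85327400, minus strand, with an EGR motif (GCGGGGGCG) at -64 to -56 from the first start: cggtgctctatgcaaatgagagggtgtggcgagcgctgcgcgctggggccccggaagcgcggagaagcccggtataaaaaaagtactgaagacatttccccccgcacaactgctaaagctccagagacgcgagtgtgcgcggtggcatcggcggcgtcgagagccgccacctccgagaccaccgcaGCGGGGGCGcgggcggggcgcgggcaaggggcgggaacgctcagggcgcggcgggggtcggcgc
Maff, chr15:79347479-79347508, plus strand, with a CRE at -29 to -22 from the second start: cggctggggcggTGACGTCActgcatgact
Csrnp1, chr9:119983024-119983053, minus strand, with an AP-1 motif (TGACTCA or TGAGTCA) at -14 to -8 from the fourth start: tcagaggccactgccgTGAGTCAccggggc
Zfp36, chr7:28379268-28379297, minus strand, with a CArG box at -58 to -49: cccaggccgccCCATAAAAGGagaaagctc

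Both strands were searched. The full CRE was present in 2 of the 14 windows, those of Btg2 and Maff, and in 1.55% of all 32851 windows of the same length. The CRE contains the shorter CRE core CGTCA, so the 2 overlap, and the core was in 7 of the 14 windows, of Btg2, Csrnp1 and Maff, against 17.8% of all windows. The CArG box was in 1 window, that of Zfp36 (1.47% of all windows), and AP-1 motifs were in 1 window of Csrnp1, which holds a second copy at -102 to -96 (4.46%). The EGR motif, searched as GCGGGGGCG or GCGTGGGCG, was in 4 windows (3.06% of all), of Zfp36, Maff and the 2 overlapping windows of Fam46a, which share 1 site. The core of the dioxin response element (GCGTG) was in 6 windows of 5 genes, Tiparp included, against 28.2% of all windows, and it can lie inside the second EGR form. An ETS core (CCGGAA) was in 4 windows of Fam46a, Tiparp and Zfp36 (12% of all), and the small-Maf sequence TGCTGAC was in none (3.81%). These matches describe letters in the windows and not binding.

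**Figure D1:**
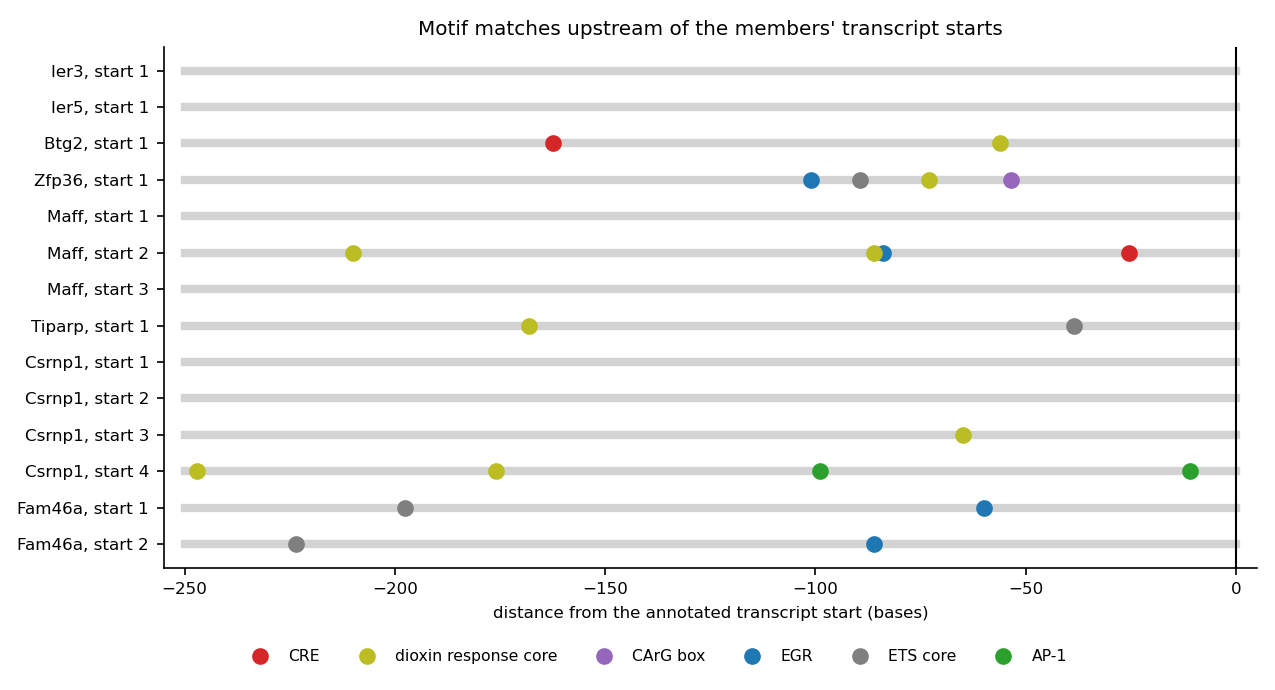
Positions of motif matches (dots, coloured by motif) in the 250 bases before each annotated transcript start of 8 of the genes, 1 grey bar per start; the x axis is the distance from the start in bases and the CRE core CGTCA is not drawn. The only CREs lie before Btg2 and the second start of Maff, and the windows of Ier3 and Ier5 hold none of the motifs drawn.

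Levels below are normalized log2 signals, in which 1 unit is a doubling, and the 4 samples of a condition are given in array order. A spot counted as passing when its signal was at least 2 times its local background and it was not marked non-uniform. Btg2, Maff, Tiparp, Csrnp1 and Fam46a passed in all 20 samples. Ier2, Ier3 and Ier5 passed only in all 4 samples of at least 1 condition, so their values come from a wider fit of 18744 genes, and Zfp36 passed in neither. Ier5 passed in both conditions of slide 2 and not in the others, although most of its spots there were not well above background by the scanner software. No count over these 8 genes stands for all 9.

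**Figure D2:**
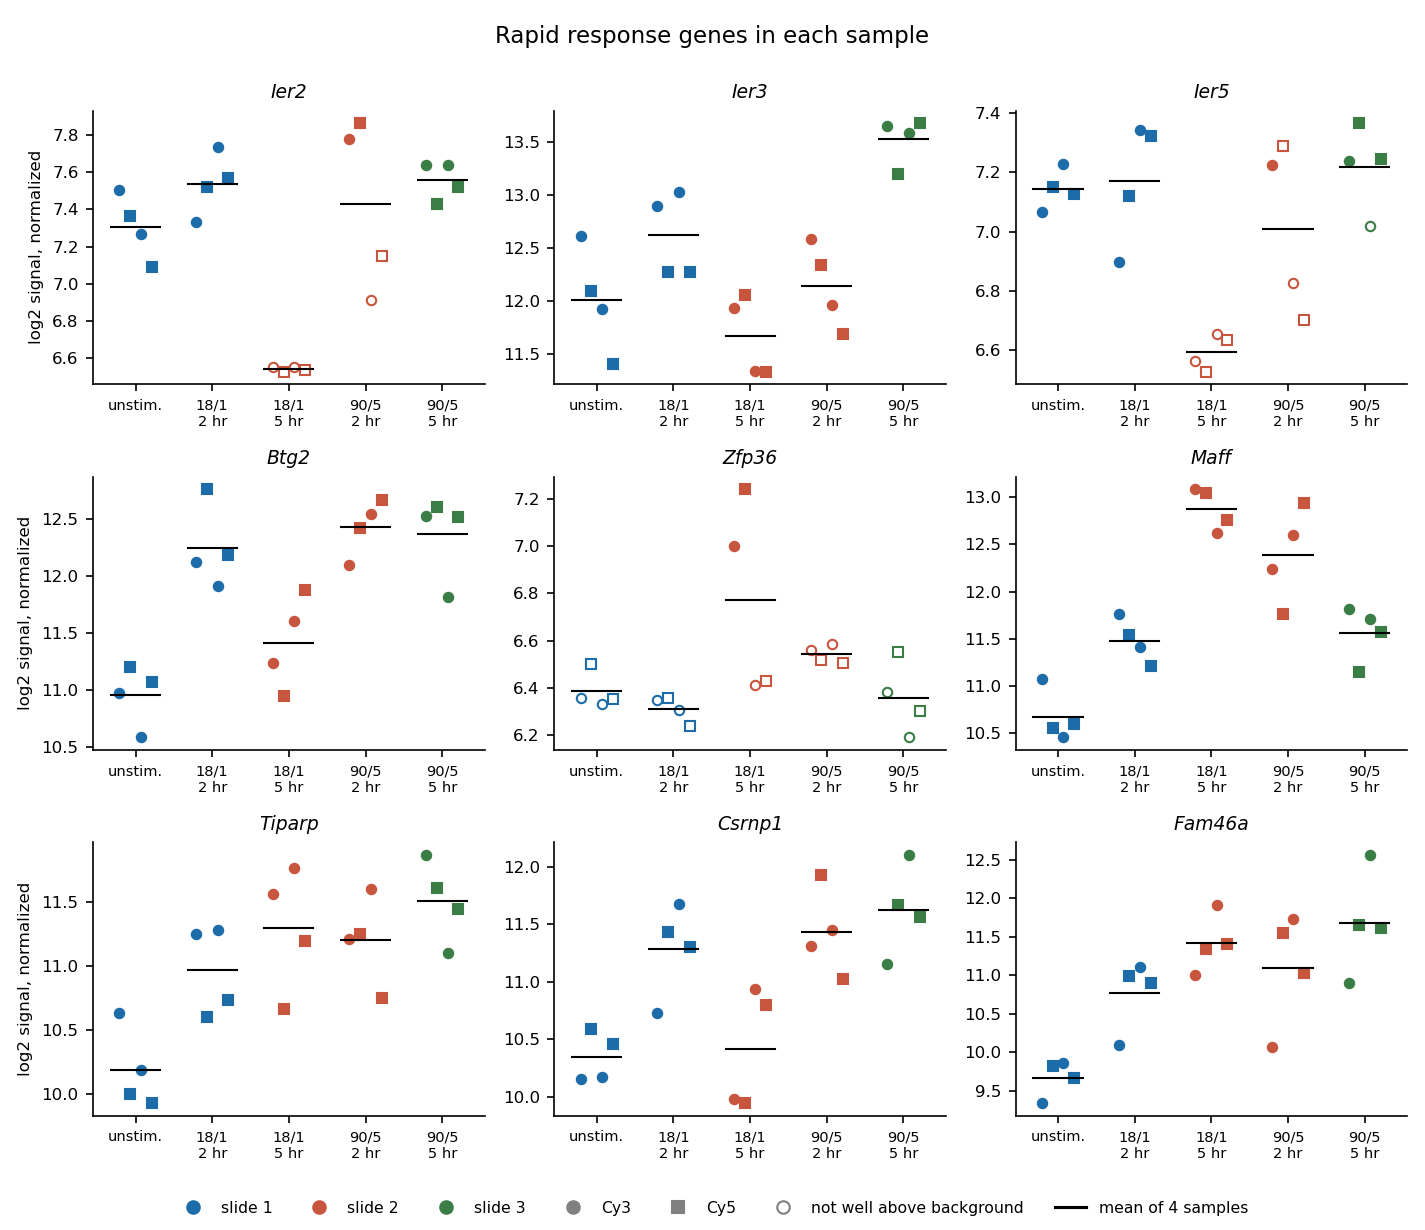
Normalized log2 signal of each of the 9 genes (y axis, own scale per panel) in the 20 samples, grouped by condition on the x axis; colours give the slide, circles Cy3 and squares Cy5, open symbols spots that are not well above background, and bars the mean of 4 samples. Maff was highest in both conditions of slide 2, Ier3 in 90/5 5 hr, and Zfp36 was well above background in only 2 samples.

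Maff encodes a small Maf protein, a leucine zipper factor without an activation domain of its own that binds DNA in pairs with other zipper proteins. Its probe (A_52_P608322, mm9 chr15:79189442-79189501) read 11.07, 10.56, 10.46 and 10.60 in the unstimulated samples. After 2 hr of 18/1 it read 11.76, 11.54, 11.41 and 11.21, and after 5 hr 13.09, 13.05, 12.63 and 12.76. All 8 of these 18/1 values lay above every unstimulated value, and the 5 hr values all lay above the 2 hr values. After 90/5 stimulation it read 12.24, 11.77, 12.60 and 12.94 at 2 hr and 11.81, 11.14, 11.71 and 11.57 at 5 hr. The differences from unstimulated were 0.81, 2.21, 1.72 and 0.89 log2 units (SE 0.30 each) for 18/1 2 hr, 18/1 5 hr, 90/5 2 hr and 90/5 5 hr.

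The change of Maff over time differed between the patterns. Its condition means ran from 12.88 in 18/1 5 hr through 12.39 in 90/5 2 hr, 11.56 in 90/5 5 hr and 11.48 in 18/1 2 hr to 10.67 in unstimulated, and in this order neighbouring conditions overlapped except for the last step. Under 18/1 it rose 2.64-fold from 2 hr to 5 hr (log2 1.4005, SE 0.30, adjusted p = 0.000911). Under 90/5 the change was -0.83 (SE 0.30, adjusted p = 0.0878), with overlapping samples, and the difference between the time courses was -2.23 (SE 0.42, adjusted p = 0.000275). At 5 hr Maff was 2.50-fold lower after 90/5 than after 18/1 (log2 -1.32, adjusted p = 0.00127), and at 2 hr all 4 samples were higher after 90/5 than after 18/1 by 0.91 (95% interval 0.29 to 1.52, adjusted p = 0.0811). Both high conditions lay on slide 2, and between these, within that slide, Maff differed by -0.49 for 90/5 2 hr minus 18/1 5 hr (95% interval -1.11 to 0.12, adjusted p = 0.268). With samples centred on their medians only, the 5 hr pattern difference was -0.69 (adjusted p = 0.116), where the median over all genes was 0.925. The interaction kept an adjusted p under 0.05 in each of the 13 other settings that could give it and each of 30 leave-outs.

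Csrnp1 encodes a nuclear protein rich in cysteine and serine that can activate transcription. Its probe (A_52_P604629, mm9 chr9:119880457-119880516) read 10.15, 10.59, 10.18 and 10.46 in the unstimulated samples. The 18/1 samples read 10.73, 11.43, 11.67 and 11.30 at 2 hr and 9.98, 9.94, 10.94 and 10.80 at 5 hr. Csrnp1 was thus above all unstimulated samples at 2 hr of 18/1, while at 5 hr both samples of array 5 lay below them and both of array 6 above. The 90/5 samples read 11.31, 11.93, 11.45 and 11.03 at 2 hr and 11.15, 11.67, 12.10 and 11.56 at 5 hr, all above the unstimulated ones. The differences from unstimulated were 0.94, 0.07, 1.08 and 1.28 (SE 0.37) in the order used for Maff, and the second was -0.70 with samples centred on their medians only.

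At 5 hr Csrnp1 was 2.30-fold higher after 90/5 than after 18/1 (log2 1.20, SE 0.37, adjusted p = 0.011), with no overlap of samples. Arrays 5 and 6, on slide 2, and arrays 9 and 10, on slide 3, hold this comparison. Without array 5 that difference was 0.75 (adjusted p = 0.106), and without array 10 it was 0.99 (adjusted p = 0.11). The difference was called in 28 of 30 leave-outs, most of which remove samples outside this comparison. With samples centred on their medians only it was 2.08, where the median over all genes was 0.925. At 2 hr Csrnp1 did not differ between patterns beyond the error (0.14, 95% interval -0.62 to 0.905). From 2 hr to 5 hr it changed by -0.87 under 18/1 (adjusted p = 0.0591) and by 0.19 under 90/5 (adjusted p = 0.802), and the interaction of 1.06 had an adjusted p of 0.102.

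Ier2 and Ier5 encode related nuclear proteins that take part in regulating transcription, and both were dim. The Ier2 probe (A_55_P2163028, mm9 chr8:87186214-87186273) read 7.51, 7.36, 7.27 and 7.09 in the unstimulated samples and 7.33, 7.52, 7.74 and 7.57 after 18/1 for 2 hr. After 18/1 for 5 hr it read 6.55, 6.53, 6.55 and 6.53, and none of these 4 spots was well above background. The narrow spread of those 4 values is that of a floor, so folds against 18/1 5 hr are given as bounds: the lowest signal of a probe well above background on each array takes the place of a lower reading.

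Ier2 entered the fit through 18/1 2 hr and both 90/5 conditions, and not through 18/1 5 hr, where 2 of the 4 spots were under 2 times background. A gene admitted by the conditions in which it reads higher is favoured to differ from the one in which it reads lower, so the fitted differences from 18/1 5 hr are given without a p-value. After 90/5 Ier2 read 7.78, 7.87, 6.91 and 7.15 at 2 hr, where the last 2 spots, both on array 8, were not well above background, and 7.64, 7.43, 7.64 and 7.52 at 5 hr. At 5 hr Ier2 was at least 1.82-fold higher after 90/5 than after 18/1 (fitted log2 difference 1.02). Under 18/1 it was at least 1.80-fold higher at 2 hr than at 5 hr (fitted -1.001 for 5 hr minus 2 hr). The interaction, which holds that condition too, was 1.13 (SE 0.34). The other 3 conditions differed from unstimulated by 0.12 to 0.25, with overlapping samples.

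Ier5 has 2 probes that disagree. A_55_P2021109 (mm9 chr1:156945765-156945824) read 7.07, 7.15, 7.23 and 7.13 in the unstimulated samples. It read 6.90, 7.12, 7.34 and 7.32 at 18/1 2 hr, and 6.56, 6.53, 6.66 and 6.64 at 18/1 5 hr, where no spot was well above background. At 90/5 2 hr it read 7.22, 7.29, 6.83 and 6.70, with 1 spot well above background, and at 90/5 5 hr 7.24, 7.37, 7.02 and 7.24, with 3. By this probe Ier5 was at least 1.41-fold higher at 5 hr after 90/5 than after 18/1 (fitted log2 0.62, adjusted p = 0.024). The other probe, A_55_P2021114 (mm9 chr1:156943530-156943589), averaged 7.18 in the unstimulated samples and 7.52 at 18/1 5 hr, where it ranged from 6.72 to 8.22 and 1 of the 4 spots was not well above background. Across the 20 samples the 2 probes had a Pearson correlation of -0.29. With no spot filter the second probe stands for the gene, and the 5 hr pattern difference was -0.17 (adjusted p = 0.739), so no direction is given for Ier5.

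**Figure D3:**
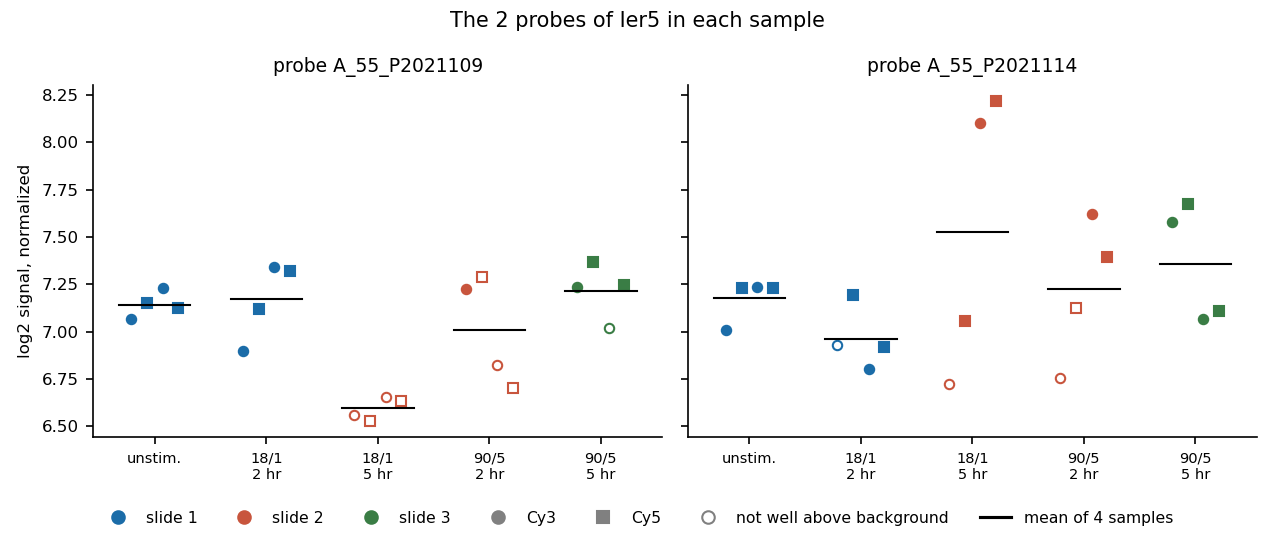
Normalized log2 signal (y axis) of the 2 Ier5 probes in the 20 samples by condition; colours, shapes, open symbols and bars are as in the plot of all 9 genes. At 18/1 5 hr the first probe lies at 6.53 to 6.66 in all 4 samples and the second at 6.72 to 8.22.

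Ier3, also called IEX-1, encodes a short-lived protein that influences cell survival. Its probe (A_51_P286488, mm9 chr17:35959528-35959587) was bright, between 34.2 and 376 times background, and stayed out of the stricter fit only because 1 spot, on array 5 in Cy5, was marked non-uniform. It read 12.62, 12.10, 11.92 and 11.41 in the unstimulated samples. The 18/1 samples read 12.90, 12.28, 13.03 and 12.27 at 2 hr and 11.94, 12.06, 11.34 and 11.34 at 5 hr, the former overlapping the unstimulated range and the latter within or below it. The 90/5 samples read 12.59, 12.35, 11.97 and 11.69 at 2 hr, within the unstimulated range, and 13.66, 13.20, 13.59 and 13.68 at 5 hr, above every other sample of the gene. In the order of the means, from 13.53 in 90/5 5 hr through 12.62, 12.15 and 12.01 in 18/1 2 hr, 90/5 2 hr and unstimulated to 11.67 in 18/1 5 hr, the first step alone had no overlap. The differences from unstimulated were 0.61, -0.34, 0.14 and 1.52 (SE 0.33).

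The change of Ier3 over time differed between the patterns, but 90/5 5 hr lies alone on slide 3, so slide and condition cannot be told apart here. Under 90/5 it rose 2.61-fold from 2 hr to 5 hr (log2 1.38, SE 0.33, adjusted p = 0.0147), and under 18/1 it fell by 0.95 on the log2 scale (adjusted p = 0.0326). The interaction was 2.33 (SE 0.47, adjusted p = 0.000873). At 5 hr Ier3 was 3.63-fold higher after 90/5 than after 18/1 (log2 1.86, adjusted p = 0.000359), a call made in each of 15 other settings and each of 30 leave-outs, as was the interaction in the 13 settings that could give it. None of these settings separates slide from condition. In the same fit 38.2% of all genes were called between patterns at 5 hr and 38.4% for the interaction. The 2 changes over time are less stable. Most of the 30 leave-outs remove samples outside the comparison, so their counts say little of the arrays compared. The rise under 90/5, from arrays 7 and 8 to arrays 9 and 10, was called in 26 of 30 leave-outs and 11 of 15 other settings. It had adjusted p = 0.158 without array 8, 0.0721 without array 9 and 0.183 without array 10. The fall under 18/1, from arrays 3 and 4 to arrays 5 and 6, was called in 23 of 30 leave-outs and 10 of 15 other settings. It had adjusted p = 0.132, 0.15 and 0.12 without arrays 3, 4 and 6. At 2 hr the difference between patterns was -0.47 (95% interval -1.17 to 0.23).

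Btg2 encodes an antiproliferative protein that recruits the CCR4-NOT deadenylase to mRNA. Its probe (A_52_P31543, mm9 chr1:135972094-135972153) read 10.97, 11.20, 10.58 and 11.07 in the unstimulated samples. It read 12.12, 12.76, 11.91 and 12.19 after 18/1 for 2 hr, and 11.23, 10.94, 11.61 and 11.87 after 5 hr. The 2 hr samples all lay above the unstimulated and the 5 hr samples, and the 5 hr samples overlapped the unstimulated ones. After 90/5 Btg2 read 12.10, 12.42, 12.54 and 12.67 at 2 hr and 12.52, 12.61, 11.81 and 12.51 at 5 hr. Ordered by mean, 90/5 2 hr (12.43), 90/5 5 hr (12.36) and 18/1 2 hr (12.25) overlapped one another, and 18/1 5 hr (11.41) overlapped unstimulated (10.96). The differences from unstimulated were 1.29, 0.46, 1.48 and 1.41 (SE 0.28), and the second was -0.29 with samples centred on their medians only.

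Under 18/1, Btg2 fell by 0.83 on the log2 scale from 2 hr to 5 hr (SE 0.28, adjusted p = 0.0226), while under 90/5 the change was -0.07 (95% interval -0.66 to 0.52). The 18/1 call was lost without array 3 (adjusted p = 0.207), array 4 (0.0559) or array 5 (0.138), and without replicate 2 of 18/1 2 hr (0.0559). At 5 hr Btg2 was 1.93-fold higher after 90/5 (log2 0.95, adjusted p = 0.01), although 1 sample of each pattern overlapped the other group. That difference was 0.62 without array 5 (adjusted p = 0.0649) and 0.75 without array 9 (adjusted p = 0.113). With median centring only it was 1.76, against that same median of 0.925. At 2 hr the patterns differed by 0.19 (95% interval -0.40 to 0.78), and the interaction, 0.76, had an adjusted p of 0.129. Within slide 2, Btg2 was 2.02-fold higher in 90/5 2 hr than in 18/1 5 hr (log2 1.02, adjusted p = 0.0252), and without arrays 1, 2, 4, 5 or 7 or replicate 4 of 90/5 5 hr, the adjusted p was between 0.054 and 0.119. It was 0.355 when only the conditions compared entered the fit.

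Zfp36, tristetraprolin, binds AU-rich elements of short-lived mRNAs and speeds their decay. Its probe (A_52_P80944, mm9 chr7:29161940-29161999) read between 6.33 and 6.50 in the unstimulated samples, between 6.24 and 6.36 at 18/1 2 hr, between 6.50 and 6.59 at 90/5 2 hr and between 6.19 and 6.55 at 90/5 5 hr, with no spot well above background. At 18/1 5 hr it read 7.002, 7.24, 6.41 and 6.43. The 2 higher readings were the only spots well above background, both lay on array 5 and both were marked non-uniform. These readings give no measured level of Zfp36 in the other conditions, and no fold is given.

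Fam46a encodes a member of a family of poly(A) polymerases, which lengthen mRNA tails, and by its brighter probe it lay above all unstimulated samples in each of the 16 stimulated samples and by its dimmer probe in 13 of them. That brighter probe (A_51_P272876, mm9 chr9:85218249-85218308) read 9.34, 9.82, 9.87 and 9.67 in the unstimulated samples. The 18/1 samples read 10.10, 10.99, 11.10 and 10.90 at 2 hr and 10.999, 11.35, 11.91 and 11.40 at 5 hr. The 90/5 samples spread wider, with 10.07, 11.55, 11.74 and 11.03 at 2 hr and 10.90, 11.66, 12.56 and 11.62 at 5 hr. The differences from unstimulated were 1.097, 1.74, 1.42 and 2.01 (SE 0.52), and the dimmer probe (A_55_P2097391, mm9 chr9:85215220-85215279) gave 0.72, 0.84, 1.09 and 1.49. The 2 probes had a Pearson correlation of 0.79 across the 20 samples.

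Tiparp encodes an ADP-ribosyl transferase that is induced by the dioxin receptor and represses it. Its brighter probe (A_51_P514961, mm9 chr3:65358749-65358808) read 10.63, 10.001, 10.19 and 9.93 in the unstimulated samples. The 18/1 samples read 11.25, 10.60, 11.28 and 10.73 at 2 hr and 11.56, 10.66, 11.77 and 11.20 at 5 hr. The 90/5 samples read 11.21, 11.25, 11.60 and 10.75 at 2 hr and 11.87, 11.61, 11.10 and 11.45 at 5 hr. Of the 16 stimulated samples 15 exceeded the highest unstimulated one, the exception being replicate 2 of 18/1 2 hr. The differences from unstimulated were 0.78, 1.11, 1.02 and 1.32 (SE 0.31), and the dimmer probe, above all unstimulated samples in 16 of 16 (A_55_P1985890, mm9 chr3:65357710-65357769) gave 0.73, 1.14, 0.91 and 1.07, with a correlation of 0.91 between the probes.

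Tiparp and Fam46a showed no difference between patterns or times beyond the error. For Tiparp the pattern difference was 0.24 at 2 hr (95% interval -0.40 to 0.87) and 0.21 at 5 hr (-0.43 to 0.845). The interval of its interaction ran from -0.93 to 0.87. For Fam46a the pattern difference was 0.32 at 2 hr (-0.76 to 1.41) and 0.27 at 5 hr (-0.81 to 1.35), intervals that leave room for more than a doubling. With samples centred on their medians only, the 5 hr differences were 1.11 for Tiparp (adjusted p = 0.0208) and 1.14 for Fam46a (adjusted p = 0.0343), where the median over all genes was itself 0.925.

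**Figure D4:**
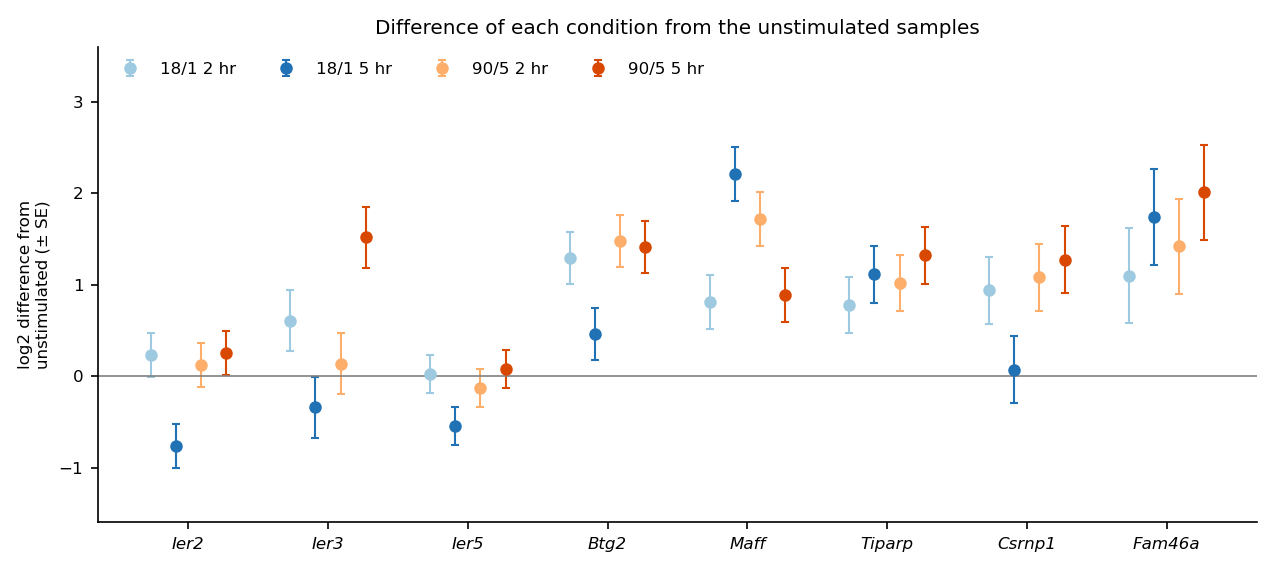
Log2 difference of each stimulated condition from the unstimulated samples for the 8 genes with a fitted value (dots, fitted mean; bars, standard error; 4 samples per condition; Zfp36 has no fitted value). Maff is highest after 18/1 5 hr at 2.21, Fam46a after 90/5 5 hr at 2.01, and Ier2, Ier3 and Ier5 lie lowest at 18/1 5 hr.

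Counts against the unstimulated samples are given beside the share of all tested genes called in the same fit, except where stated. Nothing is read from these counts, since this contrast chose the genes. A gene was called at an adjusted p under 0.05 in limma. After 18/1 for 2 hr, 0 of the 5 genes in the stricter fit and 0 of the 3 in the wider fit were called, where 0.0193% and 0.0213% of all genes were. At an unadjusted p under 0.05 all 5 and 0 of 3 passed, as did 92 of all 10355 genes and 112 of all 18744. The methods' t-test, unadjusted and with its 1.4-fold limit, passed 5 of the 8. With the replicate number as a block, 1 of the 8 was called. For the t-test and the block no share of all genes is given, so those counts stand without a background. After 18/1 for 5 hr, 3 of 5 were called higher (Maff, Tiparp, and Fam46a by its brighter probe only) and 2 of 3 lower (Ier2, and Ier5 by its first probe only), against 44.4% and 36.8% of all genes. After 90/5 for 2 hr, 3 of 5 (Btg2, Maff and Tiparp) and 0 of 3 were called, against 6.97% and 5.06%. After 90/5 for 5 hr, 0 of 5 and 0 of 3 were called, against 0.0676% and 0.149%. At an unadjusted p under 0.05, 5 of 5 and 1 of 3 passed, as did 382 of all 10355 genes and 605 of all 18744. The unadjusted t-test passed 5 of 8, and 6 of 8 were called with the replicate number as a block. Again no share of all genes is given for the t-test or the block.

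Samples without overlap are counted in the same way, beside the share of all genes in each fit. After 18/1 for 2 hr all 4 stimulated samples lay above all 4 unstimulated ones for 4 of 5 genes and 0 of 3, against 2.98% and 2.65% of all genes. After 18/1 for 5 hr they lay above for 3 of 5 and 0 of 3, against 19.7% in either fit, and below for 0 of 5 and 2 of 3, against 33.9% and 32.7%. After 90/5 they lay above for 5 of 5 and 0 of 3 at 2 hr, against 11.6% and 11.4%, and for 5 of 5 and 1 of 3 (Ier3) at 5 hr, against 5.39% and 6.63%. The comparison of 18/1 2 hr with unstimulated lies within slide 1, and the 4 genes there were Btg2, Maff, Csrnp1 and Fam46a. These counts use the brighter probe. By its dimmer probe Fam46a overlapped unstimulated in 18/1 2 hr, 18/1 5 hr and 90/5 2 hr, while Tiparp by its dimmer probe did not overlap in 18/1 2 hr. The 4 comparisons share the unstimulated samples, so their values stand side by side and are not 4 separate tests of a gene.

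The comparison of the patterns asks whether the grouping of the same number of action potentials changed the transcript. At 2 hr, 0 of 5 and 0 of 3 genes were called, where 4.96% and 3.95% of all genes were. Of these members Maff alone was under an unadjusted p of 0.05, where 2034 of all 10355 genes and 3439 of all 18744 were. At 5 hr, 3 of 5 genes (Btg2 and Csrnp1 higher after 90/5, Maff lower) and 3 of 3 higher (Ier2, Ier3, and Ier5 by its first probe only) were called. In that comparison 45.4% and 38.2% of all genes were called, and the median of all genes in the stricter fit was itself 0.23 higher after 90/5. The share among the 5 genes is near that background, the calls of Ier2 against 18/1 5 hr, here and below, are favoured by the filter and support nothing, and slide 3 and slide 2 hold the 2 groups.

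From 2 hr to 5 hr of 18/1, 2 of 5 genes (Maff higher, Btg2 lower) and 3 of 3 lower (Ier2, Ier3, and Ier5 by its first probe only) were called, against 44.0% and 36.3% of all genes and a median of all genes of -0.23. From 2 hr to 5 hr of 90/5, 0 of 5 and 1 of 3 (Ier3, higher) were called, against 8.96% and 7.94%. The interaction, which asks whether the change over time differed between patterns, called 1 of 5 (Maff) and 3 of 3 (Ier2, Ier3, and Ier5 by its first probe only), against 44.8% and 38.4%. Within slide 2, a comparison added after the data had been seen, 90/5 2 hr differed from 18/1 5 hr for 1 of 5 genes (Btg2) and 1 of 3 (Ier2, with 2 of its 4 spots in 90/5 2 hr well above background, called in 22 of 30 leave-outs and 10 of 15 other settings), against 12.9% and 8.88%.

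**Figure D5:**
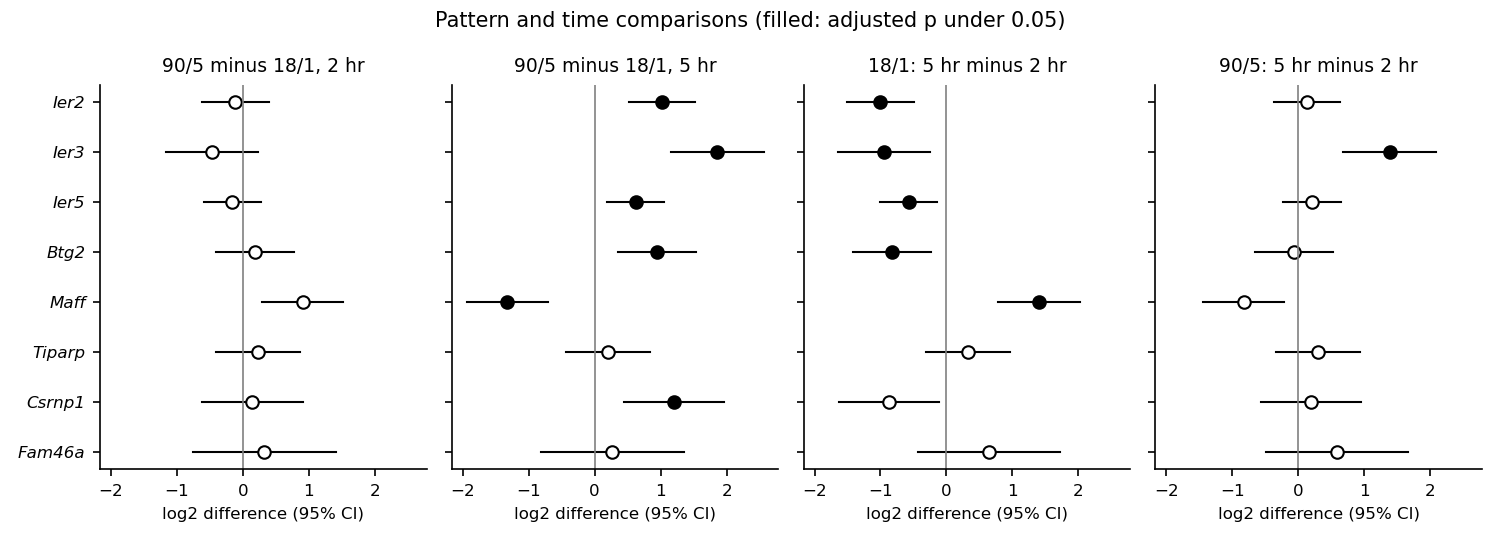
Log2 differences (x axis) between patterns at 2 hr and 5 hr and between times within each pattern for the 8 genes with a fitted value (rows); lines are 95% intervals and filled dots an adjusted p under 0.05. The genes scatter around 0 between patterns at 2 hr, while at 5 hr 5 genes, with Ier5 read by its first probe, lie above 0 and Maff below it with filled dots.

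Across the 20 samples the members did not form 1 group. Pearson correlations between the 5 genes in the stricter fit ran from -0.07 for Maff and Csrnp1 to 0.77 for Btg2 and Csrnp1. The samples share arrays, slides and conditions, so these values only describe the profiles. Of 10354 other genes, the 3 most like Csrnp1 were Egr1, Arc and Map2k3 (r of 0.94, 0.92 and 0.87), and those most like Btg2 were Isy1, Egr1 and Zfyve21 (0.89, 0.87 and 0.85). The profile of Tiparp was most like those of Bhlhe40, Gadd45b and Rgs2 (0.83, 0.80 and 0.79), and that of Fam46a like those of Dot1l, Socs3 and Rara (0.90, 0.90 and 0.83). Maff was most like Rsl1d1, Derl1 and Ddx39 (0.96, 0.95 and 0.95).

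Genes related to the members by family or pathway were examined as lists, in the stricter fit, and are described by counts only. Of the 15 paralogs of the members, 8 were tested. At 5 hr, where 45.4% of all genes were called, 3 of the 8 were called, a share no higher than that background. The values of this comparison given here and for the lists that follow describe single genes and stand against that share. In it, 2 of the 8 were lower after 90/5 than after 18/1, Btg1 (log2 -1.51, SE 0.28, adjusted p = 0.000202) and Mafg (-1.14, SE 0.30, adjusted p = 0.00394), and Tob2 was higher (1.06, SE 0.35, adjusted p = 0.0178), with a list median of -0.37 against 0.23 for all genes. Btg1 is a sister of Btg2, whose difference in the same comparison was 0.95. Mafg, like Maff a small Maf, also differed between patterns at 2 hr (1.05, SE 0.30, adjusted p = 0.0425), fell from 2 hr to 5 hr of 90/5 (-1.04, adjusted p = 0.0308) and had an interaction of -2.19 (SE 0.42, adjusted p = 0.000326). It rose from 2 hr to 5 hr of 18/1 (1.15, adjusted p = 0.00399), so that it was above 18/1 2 hr in both conditions of slide 2.

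Among partners and targets of the small Maf proteins, 6 of 11 were tested. At 5 hr Gclc, an enzyme of glutathione synthesis, was lower after 90/5 than after 18/1 (-1.22, SE 0.28, adjusted p = 0.00157) and Keap1, which holds the partner Nfe2l2 in check, was higher (1.06, SE 0.33, adjusted p = 0.0118), with a list median of -0.10. Of the 13 deadenylation genes through which Btg2 and Zfp36 act, 7 were tested, and only Cnot10 was called at 5 hr (1.25, SE 0.31, adjusted p = 0.00274), with a list median of 0.05. Among the dioxin receptor genes around Tiparp, Ahrr, the repressor of the receptor, was higher at 5 hr after 90/5 than after 18/1 (1.46, SE 0.33, adjusted p = 0.00121), and Arnt, its partner, was lower (-1.34, SE 0.27, adjusted p = 0.000537), while Tiparp differed by 0.21.

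Of the 6 genes of SRF and its cofactors, 4 were tested. Srf was higher at 5 hr after 90/5 than after 18/1 (0.70, SE 0.26, adjusted p = 0.0335) and Mkl1, a cofactor, was lower (-1.34, SE 0.44, adjusted p = 0.0165), with a list median of 0.23. Of the 9 binders and targets of AU-rich mRNA, 4 were tested, and Ccl2, a chemokine whose mRNA is a target of tristetraprolin, was lower at 5 hr after 90/5 (-0.79, SE 0.28, adjusted p = 0.0279), with a list median of -0.33. At 2 hr, Mafg was the only gene of these 6 lists that was called between patterns.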

How the data were processed

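Expression was measured on two-colour Agilent mouse arrays of 44397 spots in 20 samples, 2 per array. The deposited intensity columns are the mean spot and median local background signals that the authors extracted with Agilent Feature Extraction (versions 10.7.1.1 and 10.7.3.1 per the file headers). The deposited flag columns (saturated, non-uniform, well above background) are used as other per-spot marks by the authors' software. Probe positions are in mm9. No spot of the 9 genes was saturated.

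The signals were background-corrected (normexp, offset 50), loess-normalized within arrays and quantile-normalized between arrays on mean signal, with R 4.3.3 and limma 3.58.1. Spots had to reach 2 times background and be uniform in all samples (10355 genes), or, for the 3 members that failed this, in all 4 samples of 1 condition (18744 genes). The brightest probe stood for a gene. A linear model held the 5 conditions and a colour term, with the array as a random block (correlation 0.53 and 0.64) and Benjamini-Hochberg adjustment over all genes of the fit at 0.05. The fit was tested on simulated data. Alternatives were other background, scaling, filter, block and test choices, and leaving out each sample and array.

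The members and lists were chosen with earlier results of these data known. Every member, the list genes called in a comparison (at most 3 by size) and the 3 genes most like each member were named. The columns of 18/1 5 hr and 90/5 2 hr have no replicate numbers in their labels and are told apart here by array number and dye. The number of arrays limits the precision. Some items are not reported here.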

Additional observations from a re-analysis of the deposited data

Results flagged for a closer look

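Among 45 sets of 4 samples, 9 genes in 5 conditions, 2 held a sample whose gap to the nearest other sample was most of the range (Dixon's test at 95%), and chance gives about 1 in 20 such sets. Btg2 read 11.81 in replicate 3 of 90/5 5 hr, against 12.51 to 12.61 in the other 3. Zfp36 read 6.50 in replicate 2 of the unstimulated samples, against 6.33 to 6.36 in the others, with no spot well above background.

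The change from 2 hr to 5 hr differed between the patterns for Ier3 and Maff by the interaction term in limma, given as 90/5 minus 18/1. It was 2.33 for Ier3 and -2.23 for Maff. The term also passed the threshold for Ier2 (1.13) and for Ier5 by its first probe (0.78), but neither supports a difference, since none of their spots was well above background in 18/1 5 hr. Ier2 was admitted by the filter through the conditions in which it reads higher, and Ier5 had -0.43 with no spot filter, by its second probe. In the same fits 44.8% and 38.4% of all genes were called, and the conditions lie on different slides.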

How the results depend on the processing

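Counts of called members were recomputed under 18 other settings and in 30 leave-outs, 20 of a sample and 10 of an array. For a comparison of 2 conditions most leave-outs remove samples outside it, so a count of leave-outs says little of the arrays compared. Counts not named here stayed within 1.5 times. Against unstimulated, 0 were called at 18/1 2 hr (leave-outs 0 to 1), 5 at 18/1 5 hr (1 to 5), 3 at 90/5 2 hr (0 to 5) and 0 at 90/5 5 hr (0 to 4). Between patterns 0 were called at 2 hr (0 to 1) and 6 at 5 hr (4 to 6). Over time 5 were called under 18/1 (1 to 6) and 1 under 90/5 (0 to 2), the interaction called 4 (2 to 6), and the comparison within slide 2, chosen after seeing the data, called 2 (0 to 5). Of 72 differences, the sign held in 65 to 72 in the leave-outs. The causes of the changes below were not tested.

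With median centring only, 2 were called at 18/1 5 hr against unstimulated, 0 over time under 90/5 and 4 within slide 2. With no spot filter these were 2, 0 and 1, with 2 over time under 18/1, and Ier5, then read by its second probe, turned to 0.35 at 18/1 5 hr against unstimulated, -0.17 between patterns at 5 hr, 0.56 over time under 18/1 and -0.43 for the interaction. Without the array block, 1, 5 and 5 were called at 18/1 2 hr, 90/5 2 hr and 90/5 5 hr against unstimulated, 1 between patterns at 2 hr, 2 over time under 90/5 and 4 within slide 2. With array means, 3 were called at 18/1 5 hr against unstimulated, 3 and 0 over time under 18/1 and 90/5, 0 within slide 2 and 2 for the interaction. With only the conditions compared, 2 and 3 were called at 18/1 2 hr and 90/5 5 hr against unstimulated, 2 over time under 18/1 and 0 within slide 2. With array weights, 5, 5 and 6 were called at 18/1 2 hr, 90/5 2 hr and 90/5 5 hr against unstimulated, 2 over time under 90/5 and 0 within slide 2. The methods' t-test called 5 at 18/1 2 hr and 5 at 90/5 5 hr against unstimulated unadjusted. After Benjamini-Hochberg it called 0 at 90/5 2 hr against unstimulated, 3 and 0 over time under 18/1 and 90/5, and 0 within slide 2, and it has no interaction value. Without slide 2, 1 of 7 members was called at 18/1 2 hr and 6 at 90/5 5 hr.

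Unstimulated, 18/1 2 hr and 90/5 5 hr share replicate numbers. With the replicate block 1 member was called at 18/1 2 hr and 6 at 90/5 5 hr. Deviations of same-numbered samples, with colour removed, correlated at 0.24 and 0.53 between unstimulated and 18/1 2 hr, at 0.22 and -0.35 between unstimulated and 90/5 5 hr, and at 0.42 and -0.38 between 18/1 2 hr and 90/5 5 hr. Each value covers 2 numbers of 1 colour, whose deviations mirror each other, so unstimulated and 18/1 2 hr give 2 separate values, both positive, and whether the numbers pair these samples is not settled. Dim spots limit Ier2, Ier5 and Zfp36.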
